A study of Mus musculus with 2 samples.

Results

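Among the anchors of chromatin loops in mouse embryonic stem cells, 805 of 8507 merged anchors (9.46%, Wilson 95% interval 8.86 to 10.1%) contained the end of some long non-coding RNA (lncRNA) gene and no end of a protein-coding gene. They are called lncRNA anchors here. A loop is a pair of intervals, its anchors, that the authors' caller found in closer contact than their surroundings. The 4858 loops on chromosomes 1 to 19, of 4982 in the list, were used. Anchors sharing at least 1 bp were merged. A merged anchor was kept when it contained the first or last base of a lncRNA gene record of the RefSeq gene table (GRCm38.p6, the assembly that mm10 names) and neither the first nor the last base of a protein-coding record. No contact value entered this choice beyond the presence of the loop. An anchor said below to hold no gene end held no lncRNA or protein-coding end. Other kinds of gene record were not read at far anchors. All coordinates are in mm10.

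The data were Micro-C, a proximity-ligation assay that digests fixed chromatin with micrococcal nuclease, from V6.5 cells, a male mouse embryonic stem cell line kept on gelatin-coated dishes. Both samples form 1 group, siControl: otherwise untreated cells given the siGLO control siRNA at 50 nM with DharmaFECT1 and collected 48 hours later. No second group was analysed here, so the values describe 1 line in its control state, within a study of proteins that act at the interface of cohesin and chromatin. One list stands for the 2 samples, with no value per sample. The spread between replicates and the read depth are therefore unknown, no difference was tested, and intervals cover only the counting error over this list. The data hold no RNA values, so neither markers of the cell type nor transcription of the named lncRNAs could be read.

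Chromatin loops in mammalian cells form when the cohesin ring extrudes DNA until it is held, most often at sites bound by CTCF, and other loops join promoters and enhancers or regions bound by Polycomb proteins. Long non-coding RNA genes are transcribed by RNA polymerase II but encode no long protein. Many start close to the promoter of a developmental regulator or to an enhancer, and some serve as the precursor of microRNAs. In embryonic stem cells, lncRNAs such as the Platr (pluripotency-associated transcript) genes and Lncenc1 are known from work on self-renewal.

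Of the sequences that carry the account, the mature microRNAs encoded inside lncRNA anchors are given first, because a pair of these anchors holds microRNA families named throughout stem cell biology. Sequences are from RefSeq (GRCm38.p6), 5′ to 3′, with the seed (bases 2 to 8) in capitals. The miR-302 and miR-367 genes lie with Gm51018 at chromosome 3, 127545001 to 127550000, and let-7b and let-7c-2 lie with Lncppara and Gm34622 at chromosome 15, 85705001 to 85710000. The miR-302 family is abundant in pluripotent cells, and let-7 is known as a family that rises on differentiation.
miR-302b-3p: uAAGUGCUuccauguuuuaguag
miR-302d-3p: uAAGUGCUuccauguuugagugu
miR-302c-3p: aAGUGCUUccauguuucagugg
miR-367-3p: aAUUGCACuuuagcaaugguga
let-7b-5p: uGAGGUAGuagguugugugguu
let-7c-5p: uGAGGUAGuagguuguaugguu
The seed AAGUGCU was shared by miR-302b-3p and miR-302d-3p. The tabulated miR-302c-3p begins 1 base later in the same stretch, so its capitals read AGUGCUU. The seed GAGGUAG was shared by let-7b-5p and let-7c-5p.

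Promoter windows are shown for lncRNAs whose transcription start lay inside the merged anchor of loops described below. These lie beside developmental regulators (Nkx2-2os, Sox1ot), are in the stem cell list (Lncenc1, Platr9) or share an anchor with starts on both strands and 3 loops (C130071C03Rik, Gm52046). The last, 2600014E21Rik, lies opposite the Hoxd genes. Each window runs from 250 bases before the start to 50 bases of transcript, 5′ to 3′ on the strand of the lncRNA, with the transcribed bases in capitals (RefSeq, GRCm38.p6).
Nkx2-2os, chr2:147183833-147184132, plus strand: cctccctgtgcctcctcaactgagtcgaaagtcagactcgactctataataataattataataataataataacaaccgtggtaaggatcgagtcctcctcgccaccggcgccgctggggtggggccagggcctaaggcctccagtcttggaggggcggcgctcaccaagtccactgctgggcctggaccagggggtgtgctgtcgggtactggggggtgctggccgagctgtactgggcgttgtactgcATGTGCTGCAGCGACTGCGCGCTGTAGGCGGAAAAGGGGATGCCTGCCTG
Sox1ot, chr8:12385521-12385820, plus strand: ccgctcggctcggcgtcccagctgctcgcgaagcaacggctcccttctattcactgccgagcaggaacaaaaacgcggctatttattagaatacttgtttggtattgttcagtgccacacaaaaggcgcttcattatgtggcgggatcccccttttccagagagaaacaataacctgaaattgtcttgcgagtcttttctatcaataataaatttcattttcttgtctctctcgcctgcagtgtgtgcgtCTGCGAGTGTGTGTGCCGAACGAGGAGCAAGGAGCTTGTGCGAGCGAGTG
Lncenc1, chr13:97434720-97435019, plus strand: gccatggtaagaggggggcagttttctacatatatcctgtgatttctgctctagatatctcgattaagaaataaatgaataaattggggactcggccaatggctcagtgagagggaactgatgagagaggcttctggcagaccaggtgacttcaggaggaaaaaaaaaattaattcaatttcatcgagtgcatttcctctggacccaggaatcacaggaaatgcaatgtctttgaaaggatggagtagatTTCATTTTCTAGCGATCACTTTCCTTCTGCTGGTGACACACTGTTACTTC
Platr9, chr4:34911432-34911731, minus strand: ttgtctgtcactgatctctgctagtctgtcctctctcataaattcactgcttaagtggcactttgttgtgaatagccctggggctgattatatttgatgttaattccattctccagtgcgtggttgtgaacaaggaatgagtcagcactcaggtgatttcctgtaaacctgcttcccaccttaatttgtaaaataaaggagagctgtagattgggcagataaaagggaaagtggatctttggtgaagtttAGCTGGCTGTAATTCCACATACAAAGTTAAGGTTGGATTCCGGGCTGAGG
C130071C03Rik, chr13:83721131-83721430, plus strand: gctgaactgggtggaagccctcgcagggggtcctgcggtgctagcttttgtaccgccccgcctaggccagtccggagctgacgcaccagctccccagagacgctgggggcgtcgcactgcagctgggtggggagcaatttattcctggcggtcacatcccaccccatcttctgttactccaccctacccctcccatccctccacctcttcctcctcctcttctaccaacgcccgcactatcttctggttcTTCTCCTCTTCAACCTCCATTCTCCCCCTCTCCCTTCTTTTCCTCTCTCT
Gm52046, chr13:83721606-83721905, minus strand: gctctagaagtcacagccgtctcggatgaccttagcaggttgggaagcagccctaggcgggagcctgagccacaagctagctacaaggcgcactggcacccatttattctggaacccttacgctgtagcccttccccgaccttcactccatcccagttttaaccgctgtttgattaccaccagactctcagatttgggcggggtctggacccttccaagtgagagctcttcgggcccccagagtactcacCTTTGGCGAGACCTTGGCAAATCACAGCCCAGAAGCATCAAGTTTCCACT
2600014E21Rik, chr2:75137405-75137704, plus strand: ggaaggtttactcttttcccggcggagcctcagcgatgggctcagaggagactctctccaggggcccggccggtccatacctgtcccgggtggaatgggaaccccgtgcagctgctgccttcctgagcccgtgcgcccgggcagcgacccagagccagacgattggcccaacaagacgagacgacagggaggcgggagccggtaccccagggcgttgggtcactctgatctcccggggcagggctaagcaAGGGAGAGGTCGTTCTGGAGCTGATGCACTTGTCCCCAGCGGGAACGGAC
These windows differed widely in base composition. The GC content was 66.0% in 2600014E21Rik with 21 CpG pairs, 59.7% in Nkx2-2os with 17 and 49.7% in Sox1ot with 20. It was 42.7% in Platr9 with 2 CpG pairs and 42.3% in Lncenc1 with 4.

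As a set, the promoter windows lying wholly inside lncRNA anchors (467 windows of 403 lncRNA genes) had a median GC content of 48.3% (quartiles 44.3 and 52.7%), the same median as all 11311 lncRNA windows of the table. Protein-coding windows inside loop anchors had a median of 57.3%. Letters were searched on both strands. The letters CNAGGNGGC, part of the sequence that CTCF binds, were in 20 of the 467 windows (4.28%, 2.79 to 6.52%), in 5.53% of all lncRNA windows, in 8.39% of all 31395 windows and in 11.9% of the protein-coding windows inside anchors. The E-box CACGTG was in 5.14% of the 467 windows, 5.83% of all lncRNA windows and 7.08% of the protein-coding windows inside anchors, with 7.14% over all windows. The letters TATAAA were in 14.6, 15.2 and 11.7%, with 13.6% over all windows. On each of these measures the windows in lncRNA anchors lay nearer to lncRNA windows in general than to protein-coding windows at anchors. The anchors are many times longer than these windows, and their other sequence was not searched.

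How many genes these anchors stood for came next. They held an end of 873 of 12408 lncRNA records (7.04%), and 1170 lncRNA records (9.43%, 8.93 to 9.96%) had an end at any merged anchor. Protein-coding records, of 17.5 kb at the median, had an end at an anchor in 1899 of 20661 cases (9.19%, 8.80 to 9.59%). This order turned with the rule: with anchors widened by 5 kb on each side the shares were 15.2% of lncRNA and 16.5% of protein-coding records, and with any overlap 12.2 and 18.1%. Most lncRNA anchors (725) held 1 lncRNA record, 77 held 2 and 3 held 3. In 15 cases the ends of 1 record fell in 2 different lncRNA anchors. The records had a median length of 10.04 kb (quartiles 4.68 and 21.6 kb) against 8.39 kb for all lncRNA records. Almost all carried a predicted symbol beginning with Gm or LOC or ending in Rik (844 of 873, 96.7%), as did 96.1% of all lncRNA records, so few of these genes have a described function.

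Other non-coding genes lay in the same anchors. Ends of 16 transfer RNA genes fell in 7 lncRNA anchors, 6 of them in the anchor of C230035I16Rik and Gm40833 on chromosome 13 (tRNA genes from 23431412 to 23438768) and 4 in that of Gm32298 on the same chromosome. Ends of 11 microRNA genes fell in 6 anchors. Pseudogene ends (45 records) fell in 43 anchors, and 6 small nucleolar and 3 small nuclear RNA genes had an end there. Over all anchors, transfer RNA records had an end at an anchor more often (56 of 391, 14.3%, 11.2 to 18.1%) than lncRNA records, and microRNA records less often (53 of 1136, 4.67%, 3.58 to 6.05%). Their median lengths were 0.073 and 0.08 kb, against 8.39 kb for lncRNA records. Either end counts, and both ends of so short a record fall together, so these shares are not like measures. Pseudogene, small nucleolar and small nuclear RNA records had 4.29, 3.11 and 3.54%. The transfer RNA genes lie in clusters and are not independent of each other.

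The share of anchors in this class was close at 5 and 10 kb of width and higher at 25 kb. It was 188 of 2084 anchors of 5 kb (9.02%, 7.87 to 10.3%), 464 of 5211 of 10 kb (8.90%, 8.16 to 9.71%) and 147 of 1150 of 25 kb (12.8%, 10.98 to 14.8%), and the 6 other lncRNA anchors were wider than 1 pixel, the square of the contact map at which a loop was called. Anchors with protein-coding ends alone were 12.7, 16.1 and 23.0% at these widths. The 25 kb anchors held lncRNA ends alone and protein-coding ends alone more often than the narrower ones.

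**Figure D1:**
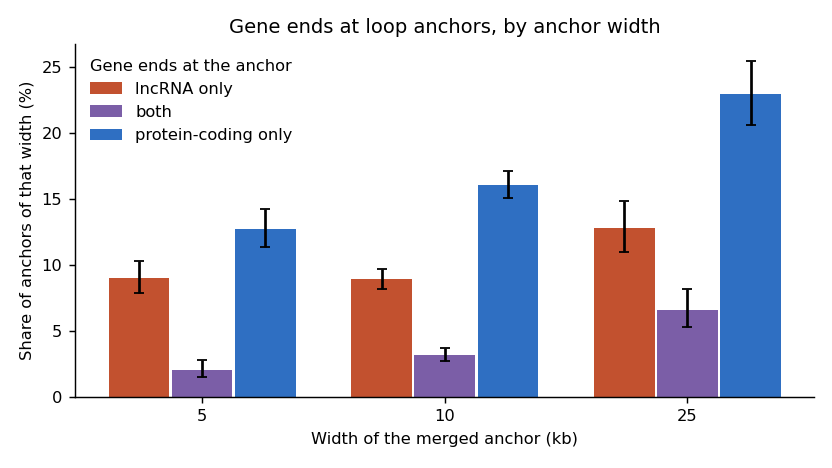
Share of merged anchors (percent, with Wilson 95% intervals) of each gene class at anchor widths of 5, 10 and 25 kb. Anchors with only a lncRNA end made up 9.02, 8.90 and 12.8%, below anchors with only a protein-coding end at every width.

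Per chromosome, the share ran from 7.54% on chromosome 9 (35 of 464 anchors) to 12.9% on chromosome 19 (27 of 210, 8.99 to 18.1%). The most lncRNA anchors were on chromosome 1 (67) and the fewest on chromosome 17 (22). Their density was 0.440 per Mb on chromosome 19 and 0.232 per Mb on chromosome 17. The intervals of the lowest and the highest chromosome overlapped, so the order of the chromosomes was not resolved at these counts.

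**Figure D2:**
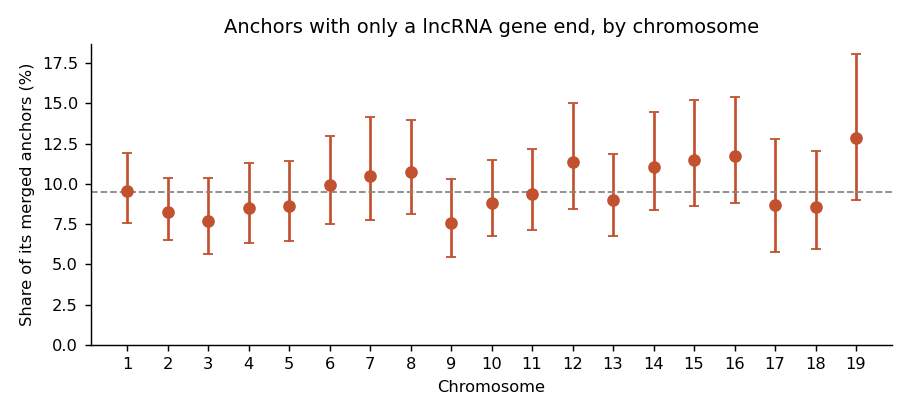
Share of each chromosome's merged anchors that held only a lncRNA gene end (percent, points with Wilson 95% intervals), with the share over chromosomes 1 to 19 as a dashed line. Chromosome 9 was lowest at 7.54% and chromosome 19 highest at 12.9%.

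Which end of the gene lay at the anchor was read from the strand in the promoter table, which 643 of the 873 records had. Of 653 pairs of an anchor and a lncRNA record, the transcription start alone lay inside in 279 (42.7%), the transcription end alone in 246 (37.7%) and both in 128 (19.6%). Where 1 end was inside, it was the start in 53.1% of pairs (48.9 to 57.4%). At anchors with protein-coding ends alone the start made up 45.1% of such pairs (522 of 1157, 42.3 to 48.0%), and both ends lay inside in 9.61%. A transcription start of a lncRNA was thus inside 382 of the 805 anchors (47.5%), and the rest held an end of transcription or a record without a strand.

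Loops left lncRNA starts in both directions in near equal numbers. Of 437 loop ends at a lncRNA start, 235 ran the way of transcription (53.8%, 49.1 to 58.4%), and at starts of protein-coding genes 342 of 622 did (55.0%, 51.1 to 58.9%). Starts on opposite strands were present in 20 lncRNA anchors, in 21 pairs. In 11 pairs the starts lay within 1 kb, and 4 of these pointed away from each other. The closest were Gm39094 and Gm33122 on chromosome 7, 12 bp apart, Gm13847 and Gm13848 on chromosome 6, 29 bp apart, and Gm35192 and Gm41917 on chromosome 1, 76 bp apart. The starts of C130071C03Rik and Gm52046, whose windows are printed above, were 274 bp apart with the transcripts overlapping at their 5′ ends.

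Known lncRNAs were counted from 5 lists, each read against the background of 7.04% at lncRNA anchors and 9.43% at any anchor. The lists were drawn up here by symbol, and the link of each member to its list was not checked. Of 27 matched lncRNAs of the embryonic stem cell list, 4 had an end at a lncRNA anchor (14.8%, 5.92 to 32.5%): Platr9, Platr6, Lncenc1 and Lncppara. Of 39 developmental and homeobox-antisense lncRNAs, 3 did (7.69%, 2.65 to 20.3%): Nkx2-2os, Sox1ot and Lhx1os. A further 7 of these 39, among them Dlx6os1, Hoxb5os and Irx3os, lay at anchors that also held a protein-coding end, so 10 (25.6%, 14.6 to 41.1%) were at some anchor. Among 14 microRNA host genes, Mir124-2hg was the only one at a lncRNA anchor (7.14%). None of 11 imprinted lncRNAs (a count of 0 allows up to 27.3%) and none of 28 abundant nuclear or housekeeping lncRNAs (up to 10.7%) had an end at one. Small lists leave wide intervals, and each of the lncRNA anchor shares has 7.04% inside its interval. At any anchor, the interval of the developmental list (14.6 to 41.1%) lay above 9.43%, and those of the other lists held that value. This difference was not tested.

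At the Nkx2-2 locus the lncRNA anchor was joined to 2 developmental transcription factor genes, Pax1 and Foxa2. Nkx2-2os is transcribed from the opposite strand of Nkx2-2, a homeobox gene of the ventral neural tube and the pancreas, and its start (147184083, plus strand) lay with 6430503K07Rik in the anchor at chromosome 2, 147180001 to 147190000, wholly inside the Nkx2-2 record. One loop reached Pax1, a paired-box gene of the sclerotome and thymus, over 175 kb with a peak score of 5.58. Before merging, its near anchor was 147185001 to 147190000. That interval leaves out the Nkx2-2os start and holds a 6430503K07Rik start (147187424). The other reached Foxa2, a forkhead gene of endoderm and floor plate, over 860 kb with a peak score of 10.1 and a pixel signal of 10.3. The peak score is the caller's own value and is compared only among loops of 1 pixel size. That of the Foxa2 loop stood at the 99.5th percentile of 10 kb loops, and that of the Pax1 loop at the 70.1st of 5 kb loops. Both far anchors also held a lncRNA end, 9030622O22Rik at Foxa2 and AI646519 at Pax1.

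The other developmental lncRNAs had loops at lower percentiles of peak score. Sox1ot, which starts upstream of and runs past Sox1, a SOX gene of early neural cells, had its start at the anchor at chromosome 8, 12380001 to 12390000, and a 390 kb loop whose far anchor held no gene end, with a peak score of 3.65 (33.5th percentile). Lhx1os, beside the LIM-homeobox gene Lhx1 of kidney and head development, had its transcription end at chromosome 11, 84530001 to 84540000. Its loop of 260 kb had a peak score of 2.77, at the 0.829th percentile of 10 kb loops. These 2 scores lay below the median of their pixel size and those of the Nkx2-2os loops above it. The pixel signal gave another order. Within their pixel sizes it stood at the 77.2nd percentile for Sox1ot and the 24.6th for Lhx1os. For the Nkx2-2os loops it stood at the 35.3rd (Pax1) and the 95.8th (Foxa2).

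The lncRNAs of the stem cell list made 1 loop each. The start of Lncenc1 lay at chromosome 13, 97430001 to 97440000, and looped over 190 kb to Enc1, which encodes an actin-binding kelch protein, with a peak score of 3.13 (8.98th percentile). Enc1 was also the nearest protein-coding end, 177 kb from the anchor. The start of Platr9 lay at chromosome 4, 34910001 to 34920000, 2.63 kb from Cga, the gene of the shared subunit of glycoprotein hormones, with a loop of 210 kb and a peak score of 3.34 (17.2nd percentile). The transcription end of Platr6 lay at chromosome 10, 21830001 to 21835000, with a loop of 155 kb and a peak score of 4.40 (35.4th percentile). Its nearest protein-coding end was that of the kinase gene Sgk1, 47.2 kb away. The fourth, Lncppara, is described with its microRNAs below, at the 90.4th percentile. The scores of the other 3 were below the median of their pixel size, and the far anchors of Platr9 and Platr6 held no gene end.

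The microRNA anchors differed in the scores of their loops. That of Lncppara and Gm34622 held the let-7b and let-7c-2 genes, whose GAGGUAG seed is shown above. Its loop of 95 kb had a peak score of 7.07, at the 90.4th percentile of 5 kb loops, and the nearest protein-coding end, of the fatty acid receptor gene Ppara, was 24.9 kb away. The anchor of Gm51018 with the 5 microRNA genes of the miR-302 and miR-367 cluster lay inside Larp7, which encodes a protein that binds the 7SK RNA. Its loop of 100 kb had a peak score of 5.07 (55.5th percentile) and a pixel signal of 4.54. The anchor of Mir124-2hg, the host gene of a microRNA abundant in neurons, at chromosome 3, 17800001 to 17825000, had 2 loops of 1350 and 1575 kb with peak scores of 5.78 and 4.01 (91.6th and 55.6th percentile of 25 kb loops). Dubr, with Mir6363 in its anchor, had loops of 1275 and 375 kb with scores of 4.61 and 4.14. None of the far anchors described so far in this paragraph held a gene end of either kind. Of the remaining anchors with microRNA genes, that of Gm31691 with Mir1928 was joined to the protein-coding gene Ctdsp1. This loop of 190 kb, at 10 kb pixels, had a score of 3.87. Gm40742 with Mir7688 (140 kb, 3.24, 10 kb pixels) and Gm32547 with Mir187 (120 kb, 4.13, 5 kb pixels) reached anchors without gene ends.

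**Figure D3:**
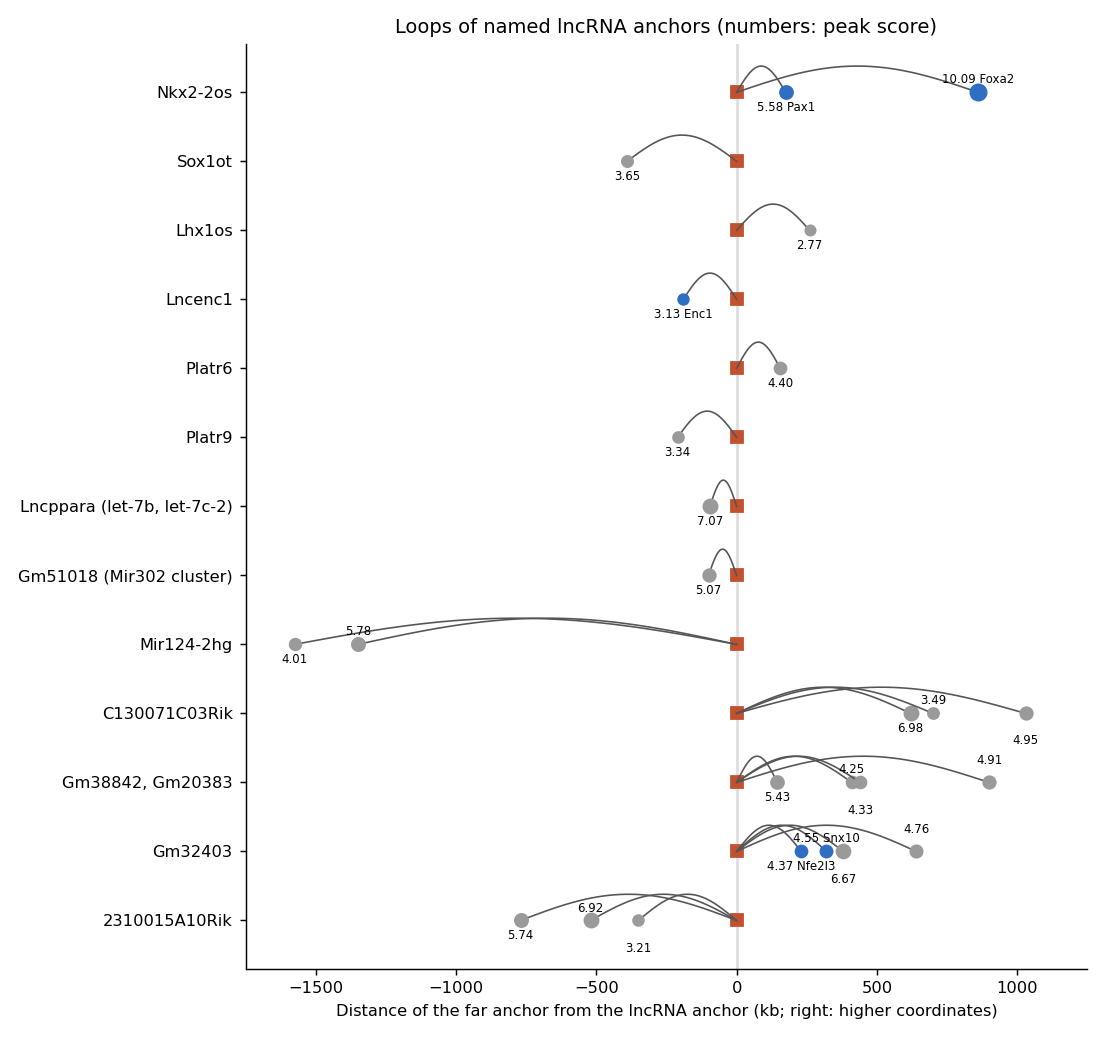
Loops of lncRNA anchors from the fixed lists, with microRNA clusters or with the most loops. The horizontal axis is the distance from the lncRNA anchor (red square) to the far anchor in kb, numbers are peak scores, larger points have higher scores, and blue points are far anchors with a protein-coding end. The Foxa2 loop of Nkx2-2os stands out at 10.1, while the Sox1ot, Lhx1os, Lncenc1 and Platr9 loops have scores under 4.

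Developmental regulators were at the far end of 14 of the 887 loops with a lncRNA anchor (1.58%, 0.942 to 2.63%). Counted by gene, 15 of 185 listed developmental genes had an end at such a far anchor (8.11%, 4.97 to 12.9%), against 201 of all 20661 protein-coding genes (0.973%). Their share at any anchor, or at far anchors of the other classes, was not counted. These values therefore do not show a trait particular to lncRNA anchors. Of 30 pluripotency genes 1 did (3.33%, 0.591 to 16.7%): Mycn, 520 kb from Gm34489 with a peak score of 4.16. The developmental genes included neighbours in 1 anchor (Evx2 and Hoxd13, and Hoxb3, Hoxb5 and Hoxb6), so they are not independent. Within their pixel sizes, the peak scores of the 14 loops stood between the 10.2nd and the 99.5th percentile.

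Scores of the developmental loops spread from 3.10 to 10.4. Hoxd3, of the Hoxd cluster, was joined to 2600014E21Rik and Gm13652 (chromosome 2, 75135001 to 75140000, the window of 66.0% GC above) over 420 kb with a score of 10.4. From the other side of the cluster, 4930441J16Rik and Gm38603 reached Evx2 and Hoxd13 over 360 and 705 kb with scores of 3.98 and 3.79. The first stood at the 50.1st percentile of 10 kb loops and the second at the 11.7th of 5 kb loops. Irx1, an Iroquois homeobox gene, was joined to Gm20554, whose anchor lies inside the neighbouring Irx2 record, over 665 kb with a score of 9.47. Lhx5, a LIM-homeobox gene of the forebrain, was joined to Gm5563 (anchor inside Tbx5) over 600 kb with a score of 7.57 and to Gm31836 over 225 kb with 3.10. The HOX cofactor gene Meis1 was joined to 8430419K02Rik, whose anchor edge lay 0.428 kb from a Meis1 end, over 140 kb with a score of 6.72. Dlx5 was joined to Gm46983 over 1230 kb with a score of 6.10. The Meis1 loop stood at the 87.9th percentile of 5 kb loops and the Dlx5 loop at the 93.7th of 10 kb loops. The others were Emx2 with E330013P04Rik (710 kb, 4.47), Hoxb3, Hoxb5 and Hoxb6 with Gm38960 (240 kb, 3.27), the limb and heart gene Tbx5 with Gm42019 (230 kb, 3.16) and Tfap2a with Gm40924 (825 kb, 3.13). Evx2, Hoxd13 and Lhx5 were each reached from 2 lncRNA anchors.

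By the rule on gene ends, most far anchors held none. Counted from each lncRNA end of a loop (947 ends), the far anchor held neither kind of end in 654 (69.1%), a protein-coding end alone in 126 (13.3%), both in 47 (4.96%) and a lncRNA end alone in 120 (12.7%, 10.7 to 14.9%). From anchors with neither kind, 9.61% of far anchors were lncRNA anchors (8.93 to 10.3%), and from protein-coding anchors 7.93% (6.70 to 9.36%). From anchors with both kinds of end it was 12.6% (47 of 373, 9.61 to 16.4%), next to the value from lncRNA anchors. By pixel size of 5, 10 and 25 kb the shares were 11.2, 12.2 and 16.5% from lncRNA anchors, 9.91, 8.90 and 12.9% from anchors with neither, 7.94, 7.52 and 9.28% from protein-coding anchors, and 13.5, 12.7 and 11.6% from anchors with both. The intervals of lncRNA anchors overlapped those of anchors with neither and with both at each pixel size. A protein-coding end was at the far anchor of 173 of the 947 (18.3%, 15.9 to 20.9%), beside 18.2% from anchors with neither. It became 32.6% with anchors widened by 5 kb on each side and 50.9% when any overlap with a gene record counted. From protein-coding anchors it was 28.5% (26.3 to 30.8%), and at 25 kb pixels 47.4% against 23.4% from lncRNA anchors. In these counts each loop between 2 anchors of 1 class is counted from both ends, and neighbouring genes can share both anchors.

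**Figure D4:**
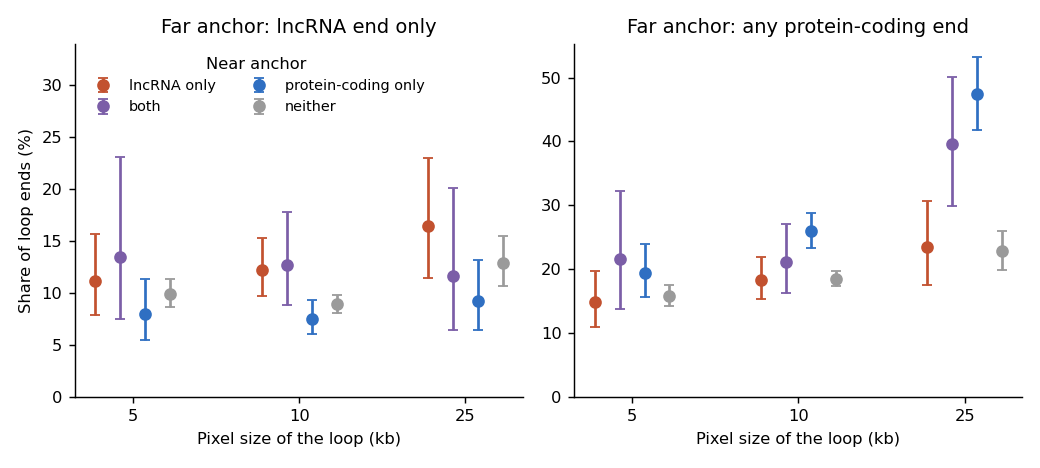
Share of far anchors (percent, Wilson 95% intervals) that held only a lncRNA end (left) or any protein-coding end (right), by the class of the near anchor (colours) and the pixel size of the loop in kb. From lncRNA anchors 11.2, 12.2 and 16.5% of far anchors were lncRNA anchors and 14.8, 18.4 and 23.4% held a protein-coding end, the latter against 19.4, 25.99 and 47.4% from protein-coding anchors.

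Both anchors were lncRNA anchors in 60 of the 887 loops (6.76%), with a median span of 350 kb (quartiles 234 and 563 kb), 14, 33 and 13 of them at 5, 10 and 25 kb pixels. No lncRNA record reached from 1 anchor of its loop to the other (0 of 947 ends, which allows a share of up to 0.317%), and none was as long as the span of its loop. The 10 with the highest raw scores are named, whatever their pixel size. Gm31871 and Gm27166 on chromosome 9 were joined over 505 kb with a score of 7.84 (94.7th percentile of 5 kb loops), with the transcription factor gene Ets1 as the nearest protein-coding gene of both. Gm45086 and 9130015G15Rik on chromosome 7 (380 kb, 6.78) stood at the 96.8th percentile of 10 kb loops, and Gm35285 with Gm35340 and BB014433 on chromosome 8 (90 kb, 6.60) at the 86.6th of 5 kb loops. Loops of 445 kb between 4931429P17Rik and Gm40941 on chromosome 13 and of 225 kb between Gm31686 and the anchor of Gm32328 and Gm52901 on chromosome 6 both had a score of 6.05. Near the neural SOX gene Sox21 on chromosome 14, the anchor of Gm31981, 4933431J24Rik and Gm32045 was joined to that of Gm41248 and Gm32382, inside the claudin gene Cldn10, over 600 kb with a score of 5.61 (90.5th percentile of 25 kb loops). The remaining 4 of the top 10 had scores between 5.19 and 5.57.

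More than 1 loop met at 126 of the 805 anchors (15.7%, 13.3 to 18.3%) and 3 or more at 14. Among anchors with neither kind of end the share was 11.2% (10.4 to 12.03%), with protein-coding ends alone 13.4% (11.7 to 15.3%) and with both 20.1% (15.9 to 25.1%). Among 5 kb anchors it was lowest for lncRNA anchors, at 1.60% (3 of 188), with 2.77% for neither, 3.40% for protein-coding and 4.65% for both. Among 10 kb anchors it was 17.2% (14.1 to 20.9%) for lncRNA anchors, 12.6% (11.5 to 13.7%) for neither, 12.5% for protein-coding and 17.5% for both. Among 25 kb anchors it was 25.2% (18.8 to 32.8%) for lncRNA anchors, 126 of 663 for neither, 22.0% for protein-coding and 26.3% for both. Anchors with both kinds of end had the largest share at every width, with intervals that overlapped those of lncRNA anchors, and the order of the other classes changed with width. Loops of these 126 anchors ran in 1 direction in 110 (87.3%), beside 88.6% for neither, 88.6% for protein-coding and 79.7% for both. Of all 805 anchors, 16 (1.99%) had loops to both sides, beside 1.28, 1.52 and 4.10% in that order.

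The most loops from 1 lncRNA anchor were 4. Gm32403, a lncRNA on the minus strand lying whole in its anchor at chromosome 6, 51200001 to 51210000, had loops of 230 kb to Nfe2l3, a bZIP transcription factor gene, of 320 kb to the sorting nexin gene Snx10, and of 380 and 640 kb to anchors without gene ends. Their peak scores were 4.37, 4.55, 6.67 and 4.76. The anchor of Gm38842 and Gm20383 (chromosome 6, 81970001 to 82000000) lay 4.05 kb from Mrpl19, a mitochondrial ribosomal protein gene, and had loops of 145, 410, 440 and 900 kb with scores of 5.43, 4.25, 4.33 and 4.91. The longest of these joined another lncRNA anchor, that of 2310069B03Rik. All 8 loops ran to higher coordinates.

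At 3 further named anchors 3 loops met, all in 1 direction. The anchor of C130071C03Rik and Gm52046 (chromosome 13, 83720001 to 83730000) lay 52.9 kb from the MADS-box gene Mef2c of muscle and neurons. Its loops of 620, 700 and 1030 kb had scores of 6.98, 3.49 and 4.95. Before merging, the anchor of the 620 kb loop was 83725001 to 83730000. That interval leaves out the starts of both printed windows (83721381 and 83721655) and holds another C130071C03Rik start (83728106). The start of 2310015A10Rik (chromosome 12, 80130001 to 80140000) had loops of 350, 520 and 770 kb with scores of 3.21, 6.92 and 5.74, the shortest of them to the lncRNA anchor of Gm36048. Gm31620 on chromosome 18 had loops of 160, 225 and 525 kb with scores of 4.41, 6.42 and 4.72. Apart from Gm36048, the far anchors of these loops held no gene end.

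Spans and scores of loops with a lncRNA anchor are set beside those of all other loops within each pixel size. Spans had a median of 185, 320 and 600 kb at 5, 10 and 25 kb pixels (236, 506 and 145 loops), against 190, 350 and 650 kb for the other loops. Peak scores had medians of 4.85, 3.95 and 3.78 against 4.88, 3.99 and 3.88. The span quartiles were 210 to 530 kb against 210 to 570 kb at 10 kb pixels, and 425 to 900 kb against 450 to 1300 kb at 25 kb pixels, where the other loops reached further. The signal of the peak pixel had medians of 4.88, 6.86 and 15.3 against 4.91, 6.74 and 13.7. Loops over 1 Mb made up 58 of 887 (6.54%) against 8.74% of the others, and at 25 kb pixels 21.4% against 33.2%. Loops under 100 kb made up 4.51 and 4.08%.

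**Figure D5:**
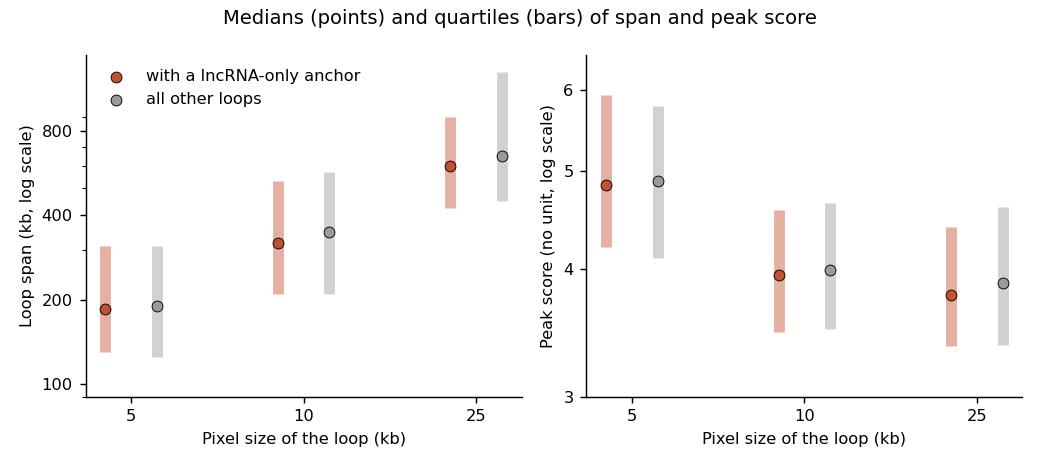
Span (left, kb) and peak score (right, no unit), both on logarithmic axes, of loops with a lncRNA anchor and of all other loops, by pixel size in kb. Points are medians and bars run between the quartiles. Median spans of 185, 320 and 600 kb sit beside 190, 350 and 650 kb for the other loops, and the quartile ranges of the scores overlap at each pixel size.

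Spans ran from 35 to 6700 kb. The longest loops joined Gm51528, whose anchor lies in the RNA-binding protein gene Rbpms, to Got1l1 on chromosome 8 (6700 kb, score 4.40), Gm30149 to the ammonium transporter gene Rhcg on chromosome 7 (6000 kb, 5.40) and Gm30456 on chromosome 10 to an anchor without gene ends (5325 kb, 4.79). Gm32073 was joined to the adhesion gene Ncam2 over 3350 kb (3.80), and 1700042O10Rik, with its anchor in Ddc, made a loop of 3275 kb (5.51). The shortest joined Gm38931 to Bicd1, a dynein adaptor gene whose record holds the anchor, over 35 kb (5.19) and Gm51808 to Odf3l2 over 55 kb (3.82). Loops of 60 kb joined Gm36109 to Trim7 (4.17) and started from Gm46404 (3.88), with its 2 transfer RNA genes, and from Gm31080 (3.83). A protein-coding end was at the far anchor in 3 of the 5 longest and 3 of the 5 shortest. Over all loops with a lncRNA anchor it was 173 of 887 (19.5%). The longest were called at 25 kb pixels and the shortest at 5 kb pixels, where 23.4 and 14.8% of loop ends had one. Counts over 5 picked loops were not tested against these shares.

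Among 5 kb loops the highest peak score was 13.3, for the 280 kb loop of Gm33308 on chromosome 12 (anchor 32245001 to 32250000), 36.3 kb from the kinase gene Pik3cg. It was followed by 2600014E21Rik with Hoxd3 (10.4), Gm33669 on chromosome 1 near the actin regulator gene Enah (230 kb, 9.85), Gm19600 on chromosome 8 near the GTPase gene Rhou (140 kb, 9.76) and D14Ertd670e on chromosome 14 (235 kb, 9.61). Among 10 kb loops the first were Gm46355 and Gm10457 on chromosome 12 (420 kb, 11.1), whose pixel signal was 18.6, then Nkx2-2os with Foxa2 (10.1), Gm46445 and Gm34059 on chromosome 14 (500 kb, 9.75), Gm41805 with Lrrn4cl on chromosome 19 (250 kb, 9.29) and Gm2921 on chromosome 8 (220 kb, 8.26). Among 25 kb loops they were Gm52381, its anchor inside the neurexin gene Nrxn2, with Rps6ka4 and Ccdc88b on chromosome 19 (350 kb, 7.25) and Gm52281 on chromosome 17 (375 kb, 6.66). In 4 of these 12 loops the far anchor held a protein-coding end.

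Anchors with 3 lncRNA records were 3 in number. Gm33085, A930004D18Rik and Gm17762 on chromosome 2 were joined over 650 kb to Bmi1, a Polycomb gene, with a score of 6.14. Gm33122, Gm51499 and Gm39094 on chromosome 7 were joined over 740 kb to Ate1, which encodes an arginyltransferase, with a score of 3.18. The third, near Sox21, had loops of 260, 380 and 600 kb with scores of 3.89, 2.90 and 5.61.

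The surroundings of lncRNA anchors were compared with those of anchors holding neither kind of end, which also lack a protein-coding end by rule. The nearest protein-coding end was 22.5 kb from the anchor's edge at the median (quartiles 7.001 and 62.7 kb) against 22.4 kb (7.37 and 67.0 kb), and it was over 100 kb away for 16.3 and 17.5%. A lncRNA anchor lay wholly inside a protein-coding record in 176 of 805 cases (21.9%, 19.1 to 24.8%) and an anchor with neither end in 2618 of 6031 (43.4%, 42.2 to 44.7%). The median distances differed by far less than their quartile ranges, while the intervals of the shares inside genes did not overlap. These shares were not split by anchor width, and a wider anchor fits inside a record less easily. Anchors of 25 kb made up 18.3% of lncRNA anchors and 10.99% of anchors with neither end. The lncRNA class also requires a lncRNA end, so where lncRNA records lie relative to protein-coding records enters its share. The part of either in the difference was not tested. Between the anchors of a loop lay the ends of a median of 2 protein-coding records (quartiles 1 and 3) for loops with and without a lncRNA anchor, and no such end in 10.1 and 9.97% of loops.

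The rule turns on a base lying inside or outside an edge that is as coarse as the pixel. In 72 of the 805 anchors the lncRNA end deepest in the anchor lay less than 500 bp inside its edge, and 75 anchors with neither end had a lncRNA end less than 500 bp outside. In 16 lncRNA anchors a protein-coding end lay less than 500 bp outside.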

How the data were processed

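Micro-C was made from 2 samples of V6.5 cells, 1 group, and deposited as 1 loop list. Per the submitters' processing notes, the authors used mm10 and tools that include Juicer 1.5.6. Not given in the sources used here: loop caller, thresholds, pooling of samples and normalization of the map. Without a header, the columns' meanings were inferred from their values and order. The deposited peak score (column 8) and regional peak score are scores of the caller. The deposited fraction, between 0 and 1, was not used. The deposited signal of column 15 is that of the peak pixel.

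Positions were made 1-based, and anchors on chromosomes 1 to 19 sharing at least 1 bp were merged and classed by ends of RefSeq gene records (GRCm38.p6). Span is the distance between anchor midpoints. Strand and windows came from RefSeq's promoter table. No p-value was computed: loops, anchors and genes are not replicates. Shares have Wilson 95% intervals. The classification was tested on simulated anchors. Python 3.11.15, numpy 2.4.6, pandas 2.3.3 and matplotlib 3.10.9 were used.

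The anchors, gene lists and tests were chosen with earlier results of these data known. Named genes were members of 5 lncRNA lists at such anchors, the 5 anchors with most loops, the loops of highest score (5, 5 and 3 by pixel size, 1 of which is not reported here), the 5 longest and 5 shortest, the 10 of highest raw score joining 2 such anchors, loops to pluripotency or developmental genes, and anchors with 3 records. Anchors with microRNAs, transfer RNAs or paired starts were named after their values were seen. Alternatives covered pixel size, anchor width, merging, predicted symbols, score, gene overlap, chromosome X, distinct far anchors and motif letters.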

Additional observations from a re-analysis of the deposited data

How the results depend on the processing

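No paired analysis was possible because single replicates have no values in the list, and so neither replicate could be left out. Of 64 alternative values, 24 stayed within the interval or spread of the main value and 40 moved. The order of lncRNA and protein-coding records at any anchor (9.43 and 9.19%) turned with 25 kb pixels alone, widened anchors, higher scores and any overlap. Values are given in this order of measures where they moved: share of anchors with only a lncRNA end (main 9.46%), those with more than 1 loop (15.7%), far anchors with a protein-coding end (18.3%), lncRNA and protein-coding records at any anchor (9.43 and 9.19%), median span (320 kb) and median peak score (4.13). With 5 kb pixels alone, the values from the second measure on were 1.76%, 13.4%, 2.34%, 1.95%, 187.5 kb and 4.80. With 10 kb pixels alone, anchors with more than 1 loop were 8.42%, records 5.73 and 5.68%, and the score 3.95. With 25 kb pixels alone they were 12.6%, 3.27%, 23.4%, 2.17%, 2.202%, 600 kb and 3.78. These 3 settings use fewer loops, which lowers the counts of records and of loops per anchor by construction. Widening anchors by 5 kb on each side gave 13.04% of anchors, 32.6% of far anchors and 15.2 and 16.5% of records. Merging anchors within 5 kb gave 29.8% with more than 1 loop and 22.7% of far anchors. Leaving out predicted symbols left 29 anchors (0.341%), with 24.2% of far anchors, 11.5% of lncRNA records, 270 kb and 4.50. Loops at or above the median score gave 8.73%, 11.5%, 4.77%, 4.80%, 360 kb and 5.06, without a move in far anchors. Counting any overlap with a record gave 11.4% of anchors, 50.9% of far anchors, 12.2 and 18.1% of records, and 4.21. The stricter letters CNAGGGGGC were in 1.93% of promoter windows in place of 4.28%. Apart from the use of fewer loops or records or wider anchors, the cause was not tested. Read depth is unknown, and the list cannot show loops missed at that depth.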

Other observations

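A few named lncRNAs outside the lists also had an end at an anchor of this class. They were picked after their values were seen. Mecomos, with its anchor inside the zinc finger gene Mecom, had a 500 kb loop with a peak score of 5.84 (92.2nd percentile of 10 kb loops). The transcription start of Bach2os had a 520 kb loop of 4.89. Junos, with its anchor 97.8 kb from an end of the AP-1 gene Jun, had a 725 kb loop of 3.27. Tincr, known from epidermal differentiation, lay whole in its anchor with a 200 kb loop of 4.50. None of these 4 far anchors held a gene end. Bcas3os1, with its anchor inside the Bcas3 record, made a 110 kb loop to an end of Bcas3, with a score of 3.36 (2.41st percentile of 5 kb loops).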
